A study of Rattus norvegicus with 4 samples.

Results

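Motor and sensory axons reach skeletal muscle in nerve branches wrapped by Schwann cells, and 8 genes that serve these 2 sides of the nerve were followed here: the myelin and Schwann cell genes Pmp22, Mbp, Prx, S100b and Sox10, and the neurofilament genes Nefh, Nefl and Nefm. They were found by symbol, through the RefSeq transcript that each array probe names, and the set was drawn up with earlier results of these data known. All 8 were on the array, with 10 probes, among 26624 genes or unnamed transcripts. Testing required a signal that the scanner software flags as well above background on at least 2 of the 4 arrays. This held for 7 of the 8 genes and for 13326 features in all. Pmp22, Mbp, S100b and Sox10 were above background on all 4 arrays, Prx on 3, and Nefl on none. Nefh and Nefm passed through the WT arrays alone, so they could only have been tested if they were measurable there.

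RNA came from skeletal muscle of male rats aged 15 weeks, labelled with Cy3 and hybridised to single-colour arrays. Wild-type (WT) Wistar rats gave 2 arrays and are sedentary by the study's design text. SPORTS rats, a hyperactive mutant on the Wistar background, gave 1 array from an exercised rat and 1 from a sedentary rat. Which muscle was sampled and how the rat exercised are not in the labels. Nothing ties the WT arrays to separate animals, so the p-values reflect how far these samples differ from each other, and that may be technical.

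Myelin is the stack of membrane that a Schwann cell winds around an axon to speed conduction. Compact myelin is held by small membrane proteins such as PMP22 and by myelin basic protein on its inner face, while periaxin links the outer Schwann cell surface to the matrix. Inside the axon, the heavy, medium and light neurofilament proteins form a scaffold that sets its calibre. The cell bodies that make neurofilament mRNA lie outside the muscle, and low levels of these mRNAs can also be present in axons and in other cells. In RNA from whole muscle, fewer cells of a type and less RNA per cell cannot be told apart.

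The tissue and the nerve were checked against markers. Of 9 skeletal muscle markers on the array, all 9 were above background on every array. Of 8 myelinating Schwann cell markers on the array, 4 and 2 were above background on the WT arrays, 3 in exercised SPORTS and 4 in sedentary SPORTS. Their summed level was 1.255 and 0.767 for WT, 1.495 for exercised and 1.370 for sedentary SPORTS, in multiples of the 75th percentile. Mag was the brightest of these markers on the exercised array, at -0.11 on the log2 scale, so the sum there mostly follows it. Gjb1, Drp2 and Egr2 were among the 4 above background on no array (named after their values were seen). None of 7 oligodendrocyte markers was above background on any array. The Schwann cell label therefore rests on part of its markers, and the genes are described singly below.

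All 4 arrays shared 1 slide, and 46.0% to 50.3% of probes were well above background, lowest on the exercised SPORTS array. That array was also the dimmest, with a median processed signal of 60.9, against 90.4 and 89.1 for WT and 89.6 for sedentary SPORTS. Its 75th percentile was 864, against 1096 and 1082 for WT and 1111 for sedentary SPORTS. The part of signal strength in the results was not tested. The exercised SPORTS array stood apart: 53.3% of the features tested differed from WT there, against 6.27% on the sedentary SPORTS array. A gap of 2-fold or more between the WT arrays was seen for 1.13% of features. Levels are log2 processed signals after subtraction of each array's 75th percentile, and a level of 1 probe is not compared with that of another. The ± after a log2 difference gives its standard error in a limma fit to 3 groups, in which the spread comes from the WT pair alone and each lone SPORTS array is assumed to vary like it.

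Pmp22, whose dosage is altered in inherited demyelinating neuropathies, fell on the exercised SPORTS array. Its level was 2.78 and 2.70 on the WT arrays, 1.63 in exercised SPORTS and 3.23 in sedentary SPORTS. The WT pair lay close together, the exercised array below both and the sedentary array above both. Pmp22 fell by 1.11 ± 0.08 on the exercised array (adjusted p = 0.00681, limma). The sedentary array differed from WT by 0.49 ± 0.08 and did not pass (adjusted p = 0.0637, 95% interval 0.24 to 0.73), although it did with the filter set to all 4 arrays, normexp background correction or a variance trend (adjusted p = 0.0370, 0.0245 and 0.0209). Pmp22 had 1 probe, A_44_P353515.

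S100b, a calcium-binding protein of Schwann cells that adipocytes can also make, followed the same order with wider steps. Its level was -0.87 and -0.86 on the WT arrays, -2.27 in exercised SPORTS and -0.14 in sedentary SPORTS. The WT arrays were almost equal, and each SPORTS array lay far outside their range. S100b fell by 1.41 ± 0.06 on the exercised array (adjusted p = 0.00474, limma) and rose by 0.72 ± 0.06 on the sedentary array (adjusted p = 0.0444). Both calls ended when the 2 probes of S100b were averaged, with values of -0.32 and 0.18 (adjusted p = 0.0627 and 0.231), since the second probe, printed in 10 copies, was not above background on any array. Of 6 adipocyte markers tested, 4 fell on the exercised array and 1 on the sedentary array, where 26% and 3.45% of all features fell. The summed level of the 8 on the array was 22.0 and 27.6 for WT, 10.4 for exercised and 20.2 for sedentary SPORTS, in multiples of each array's 75th percentile. On the exercised array this sum and S100b both lay below both WT arrays. On the sedentary array the sum lay below both WT arrays and S100b above both. Of the 8 adipocyte markers, 6 and 7 were above background on the WT arrays, 5 in exercised and 5 in sedentary SPORTS. Only 1 of them was above background on no array, the adipocyte hormone gene Lep, named after its values were seen. The part of adipocytes in the S100b values was not tested.

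Prx encodes periaxin, a scaffold of the myelinating Schwann cell. Its level was -2.93 and -3.37 on the WT arrays, -3.53 in exercised SPORTS and -2.41 in sedentary SPORTS. The exercised value was not well above background, and the WT arrays lay 0.43 apart. The sedentary array differed from WT by 0.74 ± 0.23 (adjusted p = 0.145, limma, 95% interval -0.03 to 1.51) and the exercised array by -0.38 ± 0.23 (adjusted p = 0.265, interval -1.15 to 0.39). Neither passed, and these wide intervals leave a difference of over 2-fold possible on either array.

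The 250 bases before the start of these 3 genes are shown because their values took the same order over the arrays, exercised SPORTS lowest and sedentary SPORTS highest, and because Sox10, the factor that drives Schwann cell genes, belongs to the same set. They are RefSeq sequences of assembly GRCr8, written 5′ to 3′ on the strand of the gene, and capitals mark the letters CAAAG or CAATG, the core that SOX proteins bind, on either strand. Pmp22 lies at chr10:48294682-48294931 on the plus strand, S100b at chr20:12381082-12381331 on the minus strand and Prx at chr1:91914171-91914420 on the plus strand.
Pmp22: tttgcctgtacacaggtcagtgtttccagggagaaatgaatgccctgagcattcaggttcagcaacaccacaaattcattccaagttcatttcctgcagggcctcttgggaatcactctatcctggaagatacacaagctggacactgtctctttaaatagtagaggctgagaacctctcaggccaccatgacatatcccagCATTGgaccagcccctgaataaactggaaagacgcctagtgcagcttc
S100b: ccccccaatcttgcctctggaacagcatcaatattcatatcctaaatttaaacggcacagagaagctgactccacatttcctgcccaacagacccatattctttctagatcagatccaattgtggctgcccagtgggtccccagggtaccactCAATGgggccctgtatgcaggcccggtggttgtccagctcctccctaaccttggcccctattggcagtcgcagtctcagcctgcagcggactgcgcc
Prx: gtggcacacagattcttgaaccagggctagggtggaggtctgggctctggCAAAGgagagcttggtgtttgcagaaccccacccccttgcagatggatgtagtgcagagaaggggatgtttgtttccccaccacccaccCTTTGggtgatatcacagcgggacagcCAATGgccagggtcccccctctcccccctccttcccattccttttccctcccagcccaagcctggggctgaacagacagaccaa

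The Pmp22 and S100b windows each held 1 such match and the Prx window 3. The same letters are in 64.9% of the 33469 promoter windows of this length, so the matches describe the sequences only. The longer form ACAAAG, searched first, was in none of the 3 windows and in 16.3% of all. Of the 8 genes, 4 had an entry in the promoter table.

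Mbp, which encodes the protein that compacts the inner faces of the myelin membrane, was high on 1 array. Its level was 1.02 and 0.74 on the WT arrays, 0.84 in exercised SPORTS and 2.09 in sedentary SPORTS. The exercised value lay within the WT range and the sedentary value above the other 3. The sedentary array differed from WT by 1.21 ± 0.16, or 2.32-fold, and narrowly missed the threshold (adjusted p = 0.0564, limma, 95% interval 0.69 to 1.74). With the filter set to all 4 arrays, a floor on dim values, normexp background correction or a variance trend it passed (adjusted p = 0.0292, 0.0448, 0.0128 and 0.0177). The exercised array differed by -0.04 ± 0.16 (adjusted p = 0.848, interval -0.56 to 0.48). A second Mbp probe, for another transcript of the gene, was above background on no array.

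Sox10, the transcription factor of the Schwann cell lineage, passed in no comparison. Its level was -2.64 and -2.95 on the WT arrays, -2.95 in exercised SPORTS and -2.56 in sedentary SPORTS. The WT arrays lay 0.31 apart, wider than either difference from WT. Against WT, the difference was 0.24 ± 0.17 on the sedentary array (adjusted p = 0.387, limma, interval -0.32 to 0.81) and -0.15 ± 0.17 on the exercised array (adjusted p = 0.512, interval -0.71 to 0.42). The sign of the exercised difference turned with the scaling, to 0.077 with median scaling, and so did that of Mbp, to 0.19. Both also turned without WT array 1, to 0.0054 for Sox10 and 0.10 for Mbp.

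**Figure D1:**
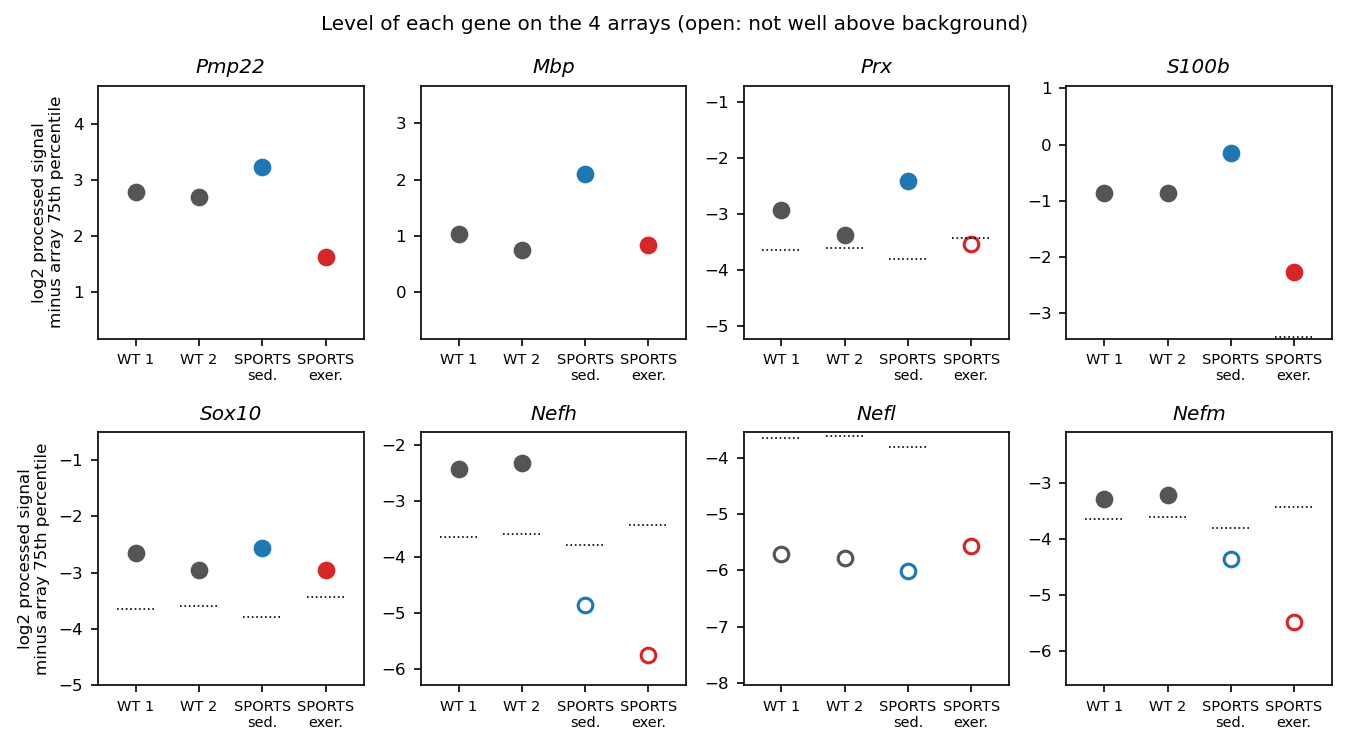
Level of each gene on the 4 arrays, in log2 units above the 75th percentile of that array, with WT in grey, sedentary SPORTS in blue and exercised SPORTS in red. Each panel spans the same number of log2 units, open points are not well above background, and dotted lines mark the lowest level well above background on that array; Nefh and Nefm lie above it on the WT arrays alone.

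The neurofilament genes had another order. Nefh, which encodes the heavy chain, was at -2.43 and -2.32 on the WT arrays, -5.74 in exercised SPORTS and -4.85 in sedentary SPORTS. In processed signal this was 203 and 217 on the WT arrays, 16.1 in exercised SPORTS and 38.6 in sedentary SPORTS. Both WT arrays were well above background and neither SPORTS array was, so the size of the difference has only a lower bound. Nefh was at least 2.08-fold lower on the exercised array and at least 2.67-fold lower on the sedentary array. Each bound was taken against the lowest signal well above background on that array. Differences of the measured values were -3.37 ± 0.09 (adjusted p = 0.00424, limma) and -2.47 ± 0.09 (adjusted p = 0.0319). These p-values test the measured differences, which use SPORTS values below background, and not the bounds. Nefh was tested only because WT was measurable, so these p-values are not independent support for a fall.

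Nefm, which encodes the medium chain, was at -3.29 and -3.21 on the WT arrays, -5.48 in exercised SPORTS and -4.36 in sedentary SPORTS. It was again above background on the WT arrays alone, but closer to it than Nefh. Nefm was at least 1.13-fold lower on the exercised array and at least 1.45-fold lower on the sedentary array. The measured differences were -2.23 ± 0.07 (adjusted p = 0.00441, limma) and -1.11 ± 0.07 (adjusted p = 0.0383). These p-values test the measured differences, which use SPORTS values below background, and not the bounds. With dim values raised to the floor the exercised call ended (adjusted p = 0.137, limma), and with a variance trend the sedentary call did (adjusted p = 0.0793).

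The Nefm probe was printed in 10 copies, which shows how far the values depend on single spots. Unflagged spots ran from 102 to 123 (7 spots) on WT array 1, from 102 to 133 (9 spots) on WT array 2, from 44.8 to 61.4 (8 spots) on the sedentary and from 17.0 to 22.3 (8 spots) on the exercised SPORTS array. Among unflagged spots, those of the SPORTS arrays overlapped neither the WT spots nor each other. This did not hold for the flagged spots left out. They read 16.1 and 269 on the exercised array, 81.7 and 144 on the sedentary array and from 101 to 156 on the WT arrays. Of the unflagged spots, 5 and 8 were well above background on the WT arrays and 0 on the SPORTS arrays. The spots of 1 array share its RNA and are not replicates of a condition.

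**Figure D2:**
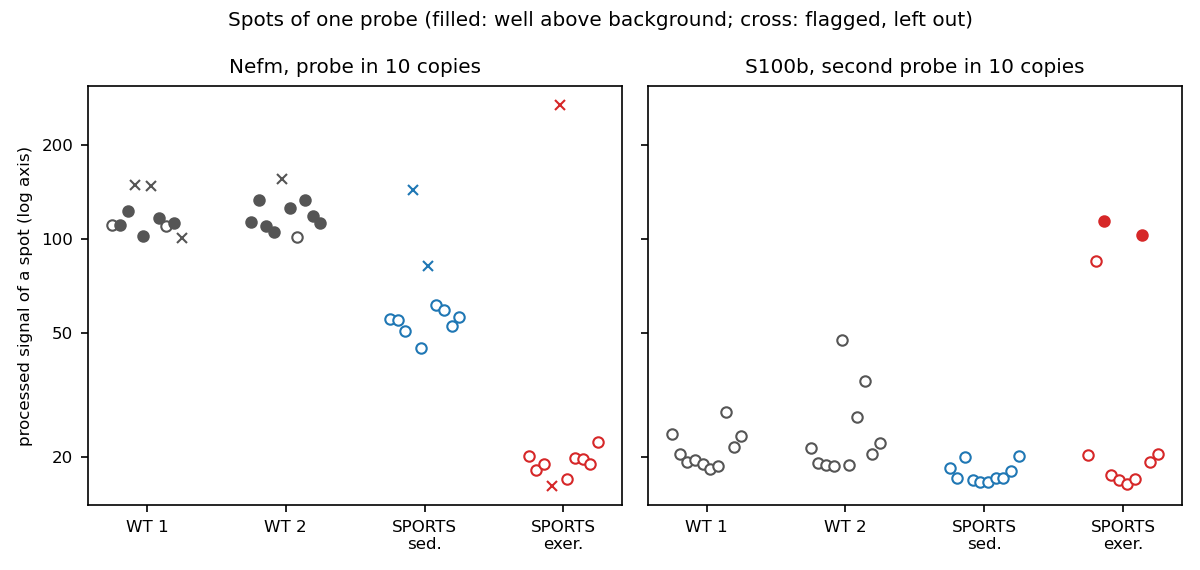
Processed signal, on a log axis, of every spot of the 2 probes printed in 10 copies, by array; filled points are well above background and crosses are spots flagged by the scanner software and left out. Unflagged Nefm spots form separate bands for WT, sedentary and exercised SPORTS, whereas 3 of 10 spots of the second S100b probe lie far above the other 7 on the exercised array.

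Nefl, the light chain on which the other neurofilament chains assemble, gave no measurable level. The WT arrays gave a processed signal of 20.9 and 19.7, with 18.1 in exercised SPORTS and 17.2 in sedentary SPORTS. None of these was well above background, and Nefl was not tested. A level below what these arrays detect is not shown to be absent.

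Counted over the tested genes of the set, 1 rose and 2 fell on the sedentary SPORTS array, or 3 of 7, where 6.27% of all features were called, 2.82% higher and 3.45% lower (limma, adjusted p below 0.05). With no filter on dim features all 3 sedentary calls ended (adjusted p = 0.104 for S100b, 0.0755 for Nefh and 0.0870 for Nefm). On the exercised array 4 of 7 fell and none rose, near the 53.3% of all features called, 27.3% higher and 26% lower. Nefh and Nefm were among the calls in each comparison, and both had been tested only because WT was measurable. The median difference of the 7 genes, Nefh and Nefm included, was 0.49 on the sedentary and -1.11 on the exercised array. Over all features tested it was -0.01 and 0.00. The set was drawn up with earlier results of these data known, so neither its counts nor its medians are independent support. The 2 comparisons share the WT arrays and are not separate evidence.

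**Figure D3:**
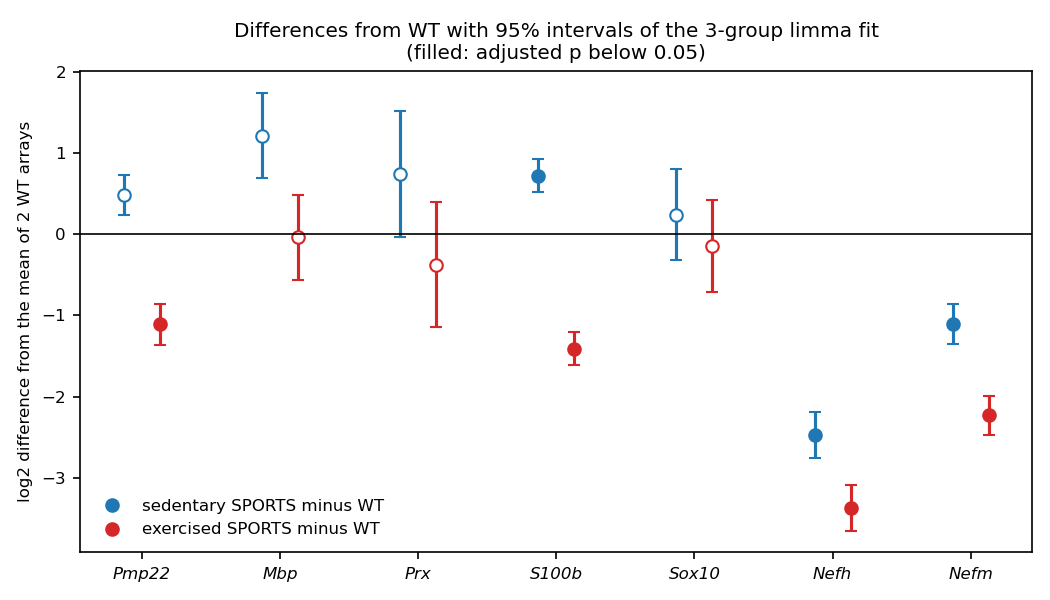
Log2 difference of each tested gene from the mean of the 2 WT arrays, for sedentary (blue) and exercised (red) SPORTS, with 95% intervals of the limma fit to 3 groups; filled points have an adjusted p below 0.05. Nefh and Nefm lie below WT on both arrays, while Pmp22 and S100b lie above WT on the sedentary and below it on the exercised array.

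Comparing the SPORTS arrays with each other sets the exercised against the sedentary rat within the strain, with 1 array each and so no replicate check. Summed levels of fast fibre genes were 2460 on the exercised and 192 on the sedentary array, and those of slow fibre genes 440 and 1917. The muscle sampled is not in the labels, so exercise cannot be told apart from fibre type or sampling site. S100b was 4.38-fold lower on the exercised array, Pmp22 3.02-fold and Mbp 2.38-fold, and Prx was at least 2.04-fold lower. Prx was less than 2-fold apart with median scaling, quantile normalization and normexp, where the log2 difference was -0.92, -0.94 and -0.70. Sox10 differed by -0.39 on the log2 scale, near the 0.31 between the WT arrays. These 4 of 7 genes were at least 2-fold apart, all lower, where 21.6% of features were at least 2-fold apart, 9.03% higher and 12.6% lower. Nefh and Nefm were above background on neither SPORTS array and have no fold between them.

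Both SPORTS arrays against both WT arrays asks what goes with the strain in either state of exercise. None of the 7 genes passed (0% of features did, limma, 2 arrays against 2), and at an unadjusted p under 0.05 there were 2 of the 7 and 982 features. The 2 were Nefh, with a measured difference of -2.92 ± 0.37 (adjusted p = 0.331, limma), and Nefm, with -1.67 ± 0.45 (adjusted p = 0.612). As bounds, Nefh was at least 2.36-fold and Nefm at least 1.28-fold lower. They were the only tested genes of the set with both SPORTS arrays below both WT arrays, an order that 22.3% of features had; none had both above, as 21.4% of features did. For Pmp22 the difference was -0.31 ± 0.62 and for S100b -0.34 ± 0.82, since the SPORTS arrays lay on opposite sides of WT. The adjusted p of the other 5 ranged from 0.774 for Mbp to 0.951 for Sox10, and the order seen in Pmp22, Prx and S100b, with exercised below and sedentary above both WT arrays, was shared by 18.2% of features. Prx left that order with median scaling, quantile normalization and normexp.

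Counts in the gene lists that follow stand beside the same shares of all features, 53.3% called on the exercised array (27.3% higher, 26% lower) and 6.27% on the sedentary array. A list near those shares is not a result about its genes. Of 19 myelin and junction genes of myelinating Schwann cells, 16 were on the array and 8 were tested. None passed on the sedentary array. On the exercised array 2 rose, Mag, an adhesion molecule of the membrane next to the axon, by 1.46 ± 0.10 (adjusted p = 0.00658, limma) and Mpdz by 0.74 ± 0.10. Cnp, a myelin enzyme of the cytoplasmic channels, fell by 1.61 ± 0.09, and Gldn, which gathers sodium channels at the node, was at least 2.15-fold lower. Median differences were -0.04 and -0.75.

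Among 15 genes of Schwann cell transcription and signalling, 5 were tested. Lgi4, a secreted signal that Schwann cells need to myelinate, fell by 1.72 ± 0.07 on the exercised array (adjusted p = 0.00458, limma) and by 0.72 ± 0.07 on the sedentary array (adjusted p = 0.0474). Erbb2, a subunit of the neuregulin receptor that muscle also expresses, fell by 1.60 ± 0.07 on the exercised array. Of 2 non-myelinating Schwann cell genes tested, the adhesion molecule gene Ncam1, which muscle fibres express too, was at least 2.82-fold lower on the exercised array.

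Of 8 axon and neuron genes tested, 4 fell and 2 rose on the exercised array and 1 fell on the sedentary array, where 53.3% and 6.27% of all features were called. Uchl1, an abundant ubiquitin hydrolase of neurons, was at 0.76 and 0.74 on the WT arrays, -3.26 in exercised SPORTS and -0.22 in sedentary SPORTS. Both SPORTS values lay below the WT pair. Uchl1 was at least 16.1-fold lower on the exercised array, where its measured value differed from WT by -4.01 ± 0.06 (adjusted p = 0.00424, limma). It fell by 0.97 ± 0.06 on the sedentary array (adjusted p = 0.0383, limma). Gap43, a growth cone protein, was not above background on the exercised array, where its measured value differed from WT by -2.18 ± 0.38 (adjusted p = 0.0300, limma). Prph, the intermediate filament of peripheral neurons, fell there with a difference of -1.50 ± 0.07, and the synuclein gene Sncg with -1.10 ± 0.15. The microtubule genes Map1b and Mapt rose by 1.05 ± 0.07 and 0.39 ± 0.06, the latter not past the threshold with quantile normalization. The summed level of 5 neuron markers was 2.39 and 2.24 for WT, 0.455 for exercised and 1.42 for sedentary SPORTS. Snap25 and Tubb3 were above background on no array. Uchl1 is among the 5 and was the brightest of them on the WT arrays, so the sum mostly follows it. Of 3 neuron markers tested, Uchl1 alone passed on the sedentary array.

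Relatives of the set were mixed. The 3 relatives of Pmp22, the epithelial membrane protein genes Emp1, Emp3 and Emp2, fell on the exercised array by 1.65 ± 0.18, 1.37 ± 0.16 and 0.91 ± 0.07, and none passed on the sedentary array. Of 9 genes of the S100 family tested, 3 fell on the exercised array, S100a4 by 1.70 ± 0.13, S100a10 by 1.24 ± 0.15 and S100a6 by 0.63 ± 0.15, the last not past the threshold with median scaling. S100a9, a protein of neutrophils and monocytes, was at least 2.61-fold higher, and none passed on the sedentary array. Among 6 other intermediate filament genes, Nes fell by 1.98 ± 0.08, Vim by 1.31 ± 0.16 and Lmna by 0.58 ± 0.10 on the exercised array, the last not past the threshold with median scaling. Synm and Sync, which tie desmin filaments to the muscle fibre's Z-discs and membrane, rose by 1.52 ± 0.08 and 0.69 ± 0.08. The relative of Sox10 on the array, Sox8, was above background on no array.

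Genes of the muscle side of the junction, several of which rise when a muscle loses its nerve, were counted beside the nerve genes. Of 10 tested, 5 fell and 4 rose on the exercised array, where 26% of all features fell and 27.3% rose. Of those that rose, Cdkn1a was not past the threshold with quantile normalization, normexp or the authors' table, nor Chrnb1 with quantile normalization. The acetylcholine receptor subunit gene Chrnd fell by 3.75 ± 0.07 and Chrna1 by 1.68 ± 0.23, the fetal subunit gene Chrng was at least 5.36-fold lower, and the muscle regulator Myog fell by 1.26 ± 0.06. Gadd45a rose by 0.90 ± 0.07. On the sedentary array 1 of 10 passed, with Chrng rising from -0.93 and -1.09 on the WT arrays to 0.48 (adjusted p = 0.0391, limma).

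**Figure D4:**
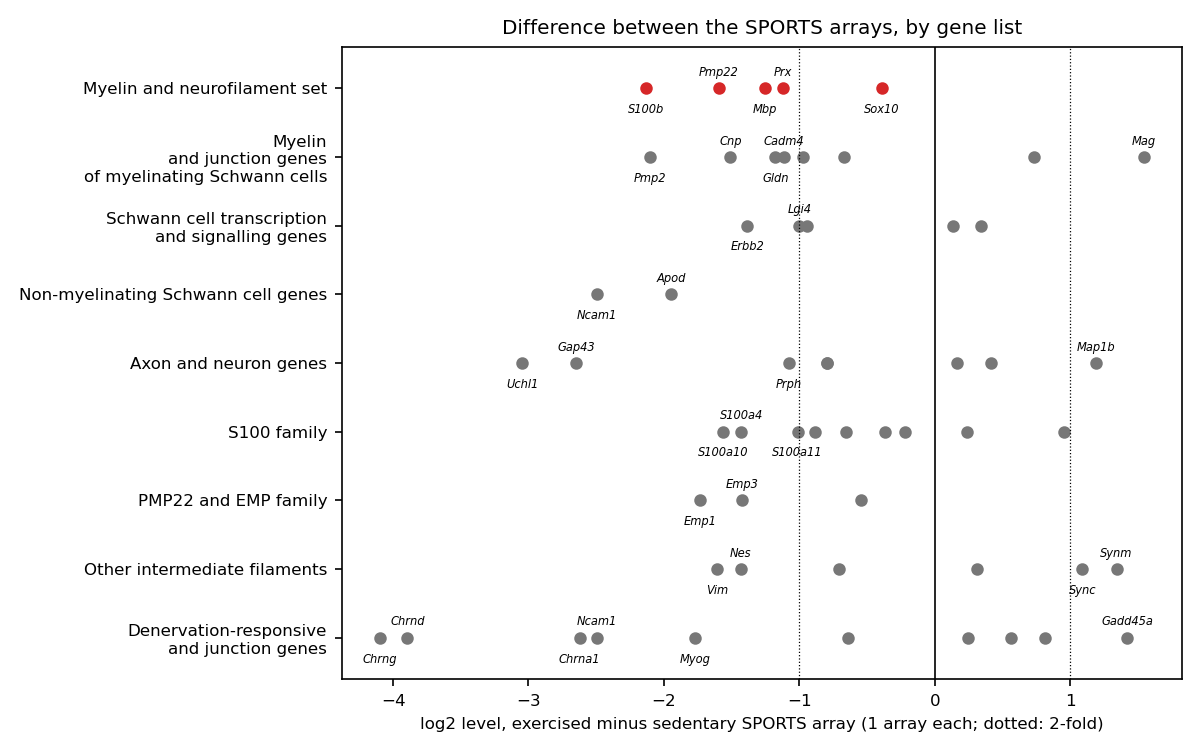
Log2 difference between the exercised and the sedentary SPORTS array, 1 array each, for the tested genes of the set and of 8 lists of related genes that were above background on at least 1 of these arrays; dotted lines mark 2-fold, and outside the top line only genes at least 2-fold apart are labelled. The 5 genes of the myelin set (red) all lie below 0, from S100b at -2.13 to Sox10 at -0.39, and the lists of related genes drawn hold genes on both sides except for the Emp and non-myelinating Schwann cell lists.

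Markers of other tissue also differed between the arrays, in more than 1 order. Summed levels of 8 fast fibre genes were 782 and 790 for WT, 2460 for exercised and 192 for sedentary SPORTS, and those of 8 slow fibre genes 2064 and 2010, 440 and 1917. For 6 fibroblast markers they were 263 and 257 for WT, 71.3 for exercised and 188 for sedentary SPORTS. For 7 macrophage markers they were 22.3 and 16.7 for WT, 9.16 for exercised and 40.0 for sedentary SPORTS. For 4 perineurial markers they were 4.53 and 4.80 for WT, 4.01 for exercised and 5.31 for sedentary SPORTS. For 7 endothelial markers they were 11.7 and 12.1 for WT, 11.4 for exercised and 13.9 for sedentary SPORTS. The macrophage, perineurial and endothelial sums were each lowest and highest on the same arrays as Pmp22, S100b and Prx. On the exercised array all 6 fibroblast markers tested fell, as did 6 of 6 tendon, 5 of 6 macrophage, 3 of 6 endothelial and 1 of 4 perineurial markers, while 2 of 5 smooth muscle markers rose, where 26% of all features fell and 27.3% rose. Tie1, among the endothelial markers that fell, was not past the threshold with median scaling, quantile normalization or normexp. On the sedentary array 2 fibroblast and 4 tendon markers fell, 1 smooth muscle marker rose, and no macrophage, endothelial or perineurial marker passed, with a median difference of 1.07 over the 6 macrophage markers tested. The part of fibre type, sampling site and these cells in the results was not tested.

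For 6 of the tested genes, the 2 others with the nearest profile over the 4 arrays were found among 8472 tested genes with a symbol, by the Euclidean distance of log2 levels centred on their mean. They were Dcaf4 and Ecm1 for Pmp22 (distance 0.04 and 0.07), Adam19 and Trim44 for Mbp (0.09 and 0.14), Inpp5d and Gmfg for Prx (0.07 and 0.08), and Scara5 and Akap12 for S100b (0.07 and 0.09). Dbp and Mcrip1 were nearest to Nefh (0.18 and 0.25), and Mettl7a and Angpt1 to Nefm (0.08 and 0.11). With 4 arrays many profiles lie close by, so these names describe the arrays only.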

How the data were processed

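The scanner output came from Agilent Feature Extraction 10.7.1.1, per the file headers and the submitters' processing notes. The authors' deposited intensity used was the processed signal, background-subtracted and detrended within each array, and the median spot and background intensity served an alternative. The authors' deposited log2 table, centred on each probe's median, followed the scanner signal (r = 1 over 30015 probes for differences between arrays) and was another alternative. Its column medians were 0.02 and -0.02 for WT, 0.17 for exercised and -0.15 for sedentary SPORTS, and how it was scaled is not given in the sources used here. The 0 or 1 flags of the deposited files marked spots well above background or outlying.

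Control and flagged spots were left out and spots of a probe averaged on the log2 scale, and a probe was above background if at least 0.5 of its spots were. Of 30367 probes 352 had no unflagged spot on some array. Values were log2 minus the array's 75th percentile. Accessions were matched to RefSeq symbols (GRCr8), 59.4% of probes to 1 symbol, and the probe with the highest mean stood for a gene. limma 3.58.1 in R 4.3.3 gave two-sided moderated tests with Benjamini-Hochberg adjustment over 13326 features, and the code was checked on simulated data. SPORTS arrays were compared with each other by fold alone. Alternatives changed the scaling, background correction, filter, floor, probe choice, variance model, value source or left out an array. Precision is limited by how few arrays there are. The genes of the set were all described, others were named if past the threshold, up to 6 a list by size, and for each gene the 2 with the nearest profile; Lep, Sox8, Snap25, Tubb3 and the undetected Schwann cell markers are exceptions, named after their values were seen. Some withheld items are not reported here. Members and lists were chosen with earlier results of these data known.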

Additional observations from a re-analysis of the deposited data

Results flagged for a closer look

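Pmp22, S100b and Prx lay below both WT arrays on the exercised and above both on the sedentary SPORTS array, so that the SPORTS arrays differed from WT in opposite directions. Between the SPORTS arrays the log2 difference was -1.60 for Pmp22, -2.13 for S100b and -1.12 for Prx, whose exercised value was not well above background, and with 1 array each this difference was not tested. For Pmp22 and S100b the order held with median scaling, quantile normalization, normexp correction and the authors' value table, whereas Prx kept it with the authors' table but not with the other 3.

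The second probe of S100b was not used in the comparisons. On the exercised array 2 of its 10 spots were well above background, against 0 on each WT array and 0 on the sedentary SPORTS array. On that exercised array 3 spots ran from 85.2 to 114 in processed signal and the other 7 from 16.4 to 20.4.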

How the results depend on the processing

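The number of features called on the sedentary SPORTS array, 836, was 2170 with features above background on all 4 arrays, 1611 with dim values at the floor, 0 with no filter, 2110 with normexp and 2816 with a variance trend; the number of genes of the set called there, 3, was 0 with no filter and 5 with normexp. On the exercised array the set's 4 calls became 2 with the filter on all 4 arrays, which drops Nefh, Nefm and Prx from testing. Between the SPORTS arrays 4 became 2 when all probes of a gene were averaged, and 3 with median scaling, quantile normalization, normexp or the filter on all 4 arrays. For both SPORTS arrays against WT, normexp and quantile normalization each called 1 feature, Vegfb, and leaving out 1 array gave from 0 to 7097 features and from 0 to 4 genes of the set: 836 and 3 without the exercised array, 7097 and 4 without the sedentary array. Median scaling moved the median of all features by 0.23 on the exercised array against WT. Signs turned on the exercised array for Mbp (0.062 with all probes averaged, 0.19 with median scaling, 0.10 without WT array 1) and Sox10 (0.077 with median scaling, 0.013 with normexp, 0.038 with quantile normalization, 0.0054 without WT array 1). For both SPORTS arrays against WT, values with 1 array left out ran from -1.11 to 0.49 for Pmp22, from -1.41 to 0.72 for S100b, from -0.040 to 1.21 for Mbp, from -0.38 to 0.74 for Prx and from -0.15 to 0.24 for Sox10; the cause was not tested. Without a WT array the fit to 3 groups has no residual degree of freedom and gives no test. No paired analysis was possible because each SPORTS group holds 1 array, so the groups compared share fewer than 2 replicate numbers. Nefl and the SPORTS values of Nefh and Nefm are limited by signal over background.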
